A study of Rattus norvegicus with 9 samples.

Results

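Myc and 4 genes of ribosome assembly, Ppan, Rrs1, Grwd1 and Nop56, were followed through 4T1 cells, a mouse mammary carcinoma line, given molybdenum disulfide nanoparticles and near-infrared light. The 5 genes were taken by symbol from the 2392 genes of the deposited expression table, and all 5 were present and passed the filter on low values. They were chosen by their expression in these same 3 groups, so their levels and differences are given as a description, with no test.

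Polyadenylated RNA of 4T1 cells was sequenced in 9 libraries, 3 in each of 3 groups. Control cells were kept in medium, MoS2 cells received the nanoparticles, and MoS2_NIR cells received the nanoparticles and near-infrared light, which the labels call photothermal therapy. All cells grew in high-glucose DMEM with serum and penicillin/streptomycin. There was no group with light and no particles, and the labels used here give neither the particle dose, nor the light dose, nor the time of harvest. The organism field names the rat, but the source, the cell line, the build mm10 and the gene identifiers are of the mouse, so mouse genes were assumed. The labels do not say whether the 3 libraries of a group are from separate cultures, and p-values therefore cover only the spread among these libraries, which may be technical.

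MYC is a transcription factor that binds DNA as a pair with MAX and raises the output of genes for growth, among them those that make ribosomes. A ribosome is built mostly in the nucleolus, where RNA polymerase I copies the ribosomal RNA precursor, small nucleolar RNPs modify it, and a chain of assembly factors folds and cuts it into the 40S and 60S subunits. The nucleolus is known to respond to heat and to other stress. Ppan (SSF1 in yeast) and Rrs1 act on the precursor of the 60S subunit, where Rrs1 is known from yeast to bring in the 5S RNA with its proteins. Grwd1 encodes a histone-binding WD repeat protein whose yeast relative escorts a protein of the 60S subunit, and Nop56 is a core protein of the box C/D small nucleolar RNPs that guide methylation of ribosomal RNA.

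The table holds scores, which hide levels, so expression values were recovered from them. Neither their unit nor the depth of any library is known, so levels are compared between groups for 1 gene and never between genes. How the genes of the table were selected is not given in the sources used here, and the median value per library was 1.63 to 1.98 in Control, 1.97 to 2.07 in MoS2 and 3.19 to 3.26 in MoS2_NIR. Of the tested genes, 63.5% were called higher and 33.9% lower with light against Control (limma adjusted p under 0.05). Most tested genes thus differed between these groups, and shares of all tested genes below describe such a table, not all expressed genes. The adjusted p-values also hold within this table only. Its selection is not known, so they are not a false discovery rate over all expressed genes. With light against Control a call was the usual outcome, so the p-value of a single gene says little beyond the direction. Among 17 epithelial and 4T1 markers, 6 (Krt14, Lcn2, Spp1, Csf3, Cxcl1 and Mmp9) were in the table, with summed values of 1800 to 1920 in Control, 1520 to 1560 in MoS2 and 1130 to 1290 in MoS2_NIR. These markers went both ways, with Spp1 at means of 1240, 962 and 560 and Lcn2 at 399, 233 and 98.9, but Cxcl1 at 109, 204 and 385 and Csf3 at 63, 118 and 172. The keratins Krt8 and Krt18, Epcam and Cdh1 were not among the genes analysed here. Of 12 immune markers 0 were in the table, and of 11 fibroblast and endothelial markers Col1a1 and Postn were, with summed values of 4.4 to 5.26, 2.44 to 3.5 and 0.67 to 1.01 in the same order. The part of these marker differences in the results was not tested, and in such bulk samples fewer cells of a type and less RNA per cell cannot be told apart.

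Myc (ENSMUSG00000022346) stood lowest with particles alone and highest with particles and light. The Control libraries held values of 68.87, 72.02 and 55.63, those with particles 51.35, 52.02 and 55.92, and those with particles and light 173.61, 183.98 and 191.15. Control replicate 3 lay just under MoS2 replicate 3, so Control and MoS2 overlapped, while each MoS2_NIR library was above each library of the other groups. The group means were 65.5 ± 8.70, 53.1 ± 2.47 and 183 ± 8.82 (SD, n = 3 each). On the log2 (value + 1) scale Myc differed by -0.29 (SE 0.11) between MoS2 and Control, by 1.47 (SE 0.11) between MoS2_NIR and Control, and by 1.77 (SE 0.11) between MoS2_NIR and MoS2. The irradiated mean was thus 2.79 times the Control mean and 3.44 times the MoS2 mean.

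**Figure D1:**
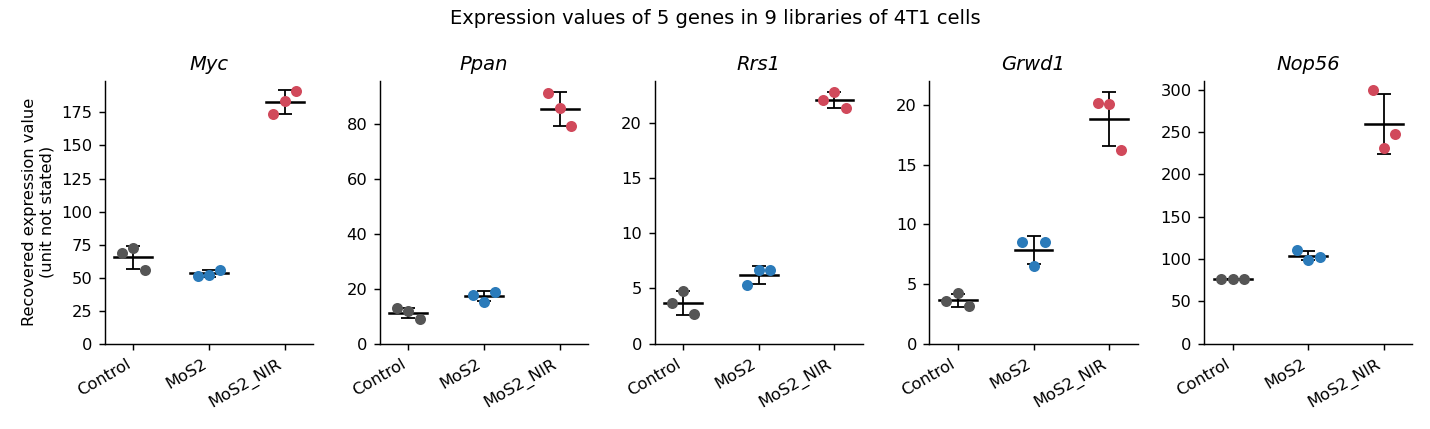
Recovered expression value (vertical axes from 0, unit not stated) of Myc, Ppan, Rrs1, Grwd1 and Nop56 in each of 9 libraries, with points for libraries, horizontal bars for group means and error bars for the SD (n = 3). Ppan, Rrs1, Grwd1 and Nop56 step up from Control to MoS2 to MoS2_NIR with no overlap, while Myc in MoS2 (51.35 to 55.92) overlaps the low end of Control (55.63 to 72.02).

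The other 4 genes were already above Control with particles alone and stood higher again with light. Ppan (ENSMUSG00000004100) had Control values of 12.8, 11.72 and 9.13, MoS2 values of 17.71, 15.27 and 18.73, and MoS2_NIR values of 91.38, 85.74 and 79.15. No library of one group overlapped another group. The means were 11.2 ± 1.89, 17.2 ± 1.78 and 85.4 ± 6.12 (SD, n = 3 each), so the irradiated mean was 7.62 times Control and 4.96 times MoS2. The log2 difference of 2.83 (SE 0.13) from Control ranked Ppan number 7 of 1748 tested genes, counted from the highest.

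Rrs1 (ENSMUSG00000061024) had the same order of groups as Ppan. Control gave 3.64, 4.75 and 2.65, MoS2 gave 5.29, 6.66 and 6.68, and MoS2_NIR gave 22.03, 22.77 and 21.36. The highest Control library, 4.75, was close to the lowest MoS2 library, 5.29, while the irradiated libraries stood far apart from both. The means were 3.68 ± 1.05, 6.21 ± 0.797 and 22.1 ± 0.705 (SD, n = 3 each), a log2 difference of 0.64 (SE 0.16) with particles alone and of 2.32 (SE 0.16) with particles and light. The spread between Control libraries was wide for Rrs1, with a coefficient of variation of 28.5% against 3.2% in MoS2_NIR.

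Grwd1 (ENSMUSG00000053801) showed the highest relative level with particles alone among the 5 genes. Its values were 3.61, 4.22 and 3.13 without particles, 8.52, 6.47 and 8.51 with them, and 20.19, 20.11 and 16.21 with particles and light. Each group was clear of the next, and the MoS2 mean, 7.83 ± 1.18, was 2.14 times the Control mean, 3.65 ± 0.546 (SD, n = 3 each). With light the mean was 18.8 ± 2.28, which is 2.4 times the MoS2 mean. The log2 differences were 0.92, 2.09 and 1.17 for MoS2 against Control, MoS2_NIR against Control and MoS2_NIR against MoS2 (SE 0.14 each).

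Nop56 (ENSMUSG00000027405) has deposited scores, standardized to mean 0 and SD 1, of -0.97, -0.97 and -0.98 for Control, -0.28, -0.48 and -0.41 for MoS2, and 1.65, 1.15 and 1.28 for MoS2_NIR. The Control libraries are almost equal, and the groups do not overlap. Recovered from these scores, Control came to 76.86, 76.62 and 76.55, MoS2 to 110.06, 99.16 and 102.86, and MoS2_NIR to 298.92, 231.55 and 247.12. The means of 76.7 ± 0.163, 104 ± 5.54 and 259 ± 35.3 (SD, n = 3 each) put MoS2 at 1.36 times and MoS2_NIR at 3.38 times Control. Its spread went the other way from that of Rrs1, from a coefficient of variation of 0.212% in Control to 13.6% in MoS2_NIR.

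These differences have to be read against a table in which most genes were higher with light. The median log2 difference of the 1748 tested genes was 0.17 for MoS2 against Control, 1.01 for MoS2_NIR against Control and 0.68 for MoS2_NIR against MoS2. The MoS2 libraries were above and clear of the Control libraries in 36.8% of tested genes, the MoS2_NIR libraries above and clear of Control in 63.4%, and above and clear of MoS2 in 61.7%. Lower and clear were 20.6%, 33% and 25.7% in the same comparisons. Ppan, Rrs1, Grwd1 and Nop56 met all 3 conditions and Myc met the last 2, and nothing is read from that, since the genes were picked for it. A group mean at least 2 times the other was found in 6.18% of tested genes for MoS2 over Control, Grwd1 among them, in 61% for MoS2_NIR over Control and in 40.3% for MoS2_NIR over MoS2, with all 5 genes in both of the latter. By log2 difference with light against Control, 99.6% of tested genes were below Ppan, 98.8% below Rrs1, 97.3% below Grwd1, 90.3% below Nop56 and 82.1% below Myc. With particles alone 98% were below Grwd1, 90.4% below Rrs1, 87.7% below Ppan, 74.6% below Nop56 and 23.7% below Myc. With light against MoS2, 98.1% were below Myc, 99.3% below Ppan, 97.6% below Rrs1, 90.7% below Nop56 and 86% below Grwd1.

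Median-ratio scaling, which holds only if the typical gene of the table is unchanged, brought the median log2 difference of all tested genes to -0.09, 0.11 and 0.02 in the 3 comparisons. The directions of the 5 genes were the same as without scaling, but the sizes moved. Myc was then at -0.69, 0.27 and 0.96 on the log2 scale for MoS2 against Control, MoS2_NIR against Control and MoS2_NIR against MoS2. Ppan was at 0.22, 1.66 and 1.45, Rrs1 at 0.33, 1.25 and 0.92, Grwd1 at 0.61, 1.02 and 0.41, and Nop56 at 0.04, 0.53 and 0.49. Which scaling is right cannot be read from a table of selected genes.

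The share of the whole log2 difference between Control and MoS2_NIR that was already there with particles alone differed between the genes. This measure was chosen after the values were seen. It was 44.1% ± 9.64 for Grwd1, 27.6% ± 7.11 for Rrs1, 25% ± 4.36 for Nop56 and 20.7% ± 5.07 for Ppan (mean and SD over the 3 MoS2 libraries). For Myc it was -19.7% ± 4.41, since each MoS2 library lay below the Control mean. These SDs hold the Control and MoS2_NIR means fixed and so leave out the spread of those groups. For Myc the Control and MoS2 libraries overlapped. Rrs1, Nop56 and Ppan were within their spread of each other, and only Grwd1 replicate 2, at 33%, came near the highest Rrs1 library, at 31.8%. Over the 883 tested genes with a log2 difference of at least 1 between MoS2_NIR and Control, the median share was 29.4%, with quartiles of 18.3% and 40.6%. After median-ratio scaling the shares were 59.6% for Grwd1, 26.3% for Rrs1, 13% for Ppan and 7.18% for Nop56, and -255% for Myc, whose whole difference was then small.

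The genes with the order of groups seen for Myc were counted, after its values were seen. Of 1066 tested genes whose MoS2_NIR mean was at least 2 times the Control mean, 61% of all tested genes, 75 (7.04%) had an MoS2 mean below the Control mean, Myc among them. With quantile normalization 61 of 484 (12.6%) had this order, Myc among them. With median-ratio scaling 40 of 203 (19.7%) did, and Myc was not among them, since its MoS2_NIR mean was then under 2 times Control.

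Within groups the 5 genes did not all vary together. In Control, replicate 3 was the lowest library for each of them, by -0.22 from the group mean for Myc, -0.26 for Ppan, -0.33 for Rrs1 and -0.17 for Grwd1 on the log2 scale, but by 0 for Nop56. The median of all tested genes was also lowest there, at -0.11. Without Control replicate 3 the log2 difference of MoS2 from Control was -0.4 for Myc, 0.46 for Ppan, 0.47 for Rrs1 and 0.84 for Grwd1. In MoS2_NIR the same replicate number was lowest for Ppan (-0.11), Rrs1 (-0.04) and Grwd1 (-0.2) and highest for Myc (0.06), while the median of all tested genes was at 0. Nop56 was highest in MoS2_NIR replicate 1, at 0.21 from its group mean.

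MYC competes for its partner MAX with repressors of the same family. Of 20 listed genes of the MYC network other than Myc, Mnt and Mxd4 were in the table, and both encode such MAX-bound repressors. Max, Mycn and Mycl were not among the genes analysed here. Mnt had values of 6.11, 7.13 and 4.81 without particles, 9.28, 8.68 and 10.52 with them and 19.23, 21 and 20.7 with light as well, so the groups did not overlap. It rose by 0.59 on the log2 scale with particles alone (SE 0.13, limma adjusted p = 0.00568) and by 1.62 with particles and light (SE 0.13, limma adjusted p = 7.77e-07), and the first call was lost when values were median-ratio scaled (limma adjusted p = 0.08). For Mxd4, Control held 8.33, 6.82 and 6.64, MoS2 held 2.95, 3.97 and 3.77, and MoS2_NIR held 3.23, 2.92 and 3.03. It fell by 0.86 on the log2 scale with particles alone (SE 0.13, limma adjusted p = 0.000924) and with particles and light (-1.02 against Control, limma adjusted p = 1.63e-05). Its log2 difference between MoS2_NIR and MoS2 was -0.16 (SE 0.13, limma adjusted p = 0.247), or -0.75 with median-ratio scaling (limma adjusted p = 0.000374). Mxd4 lies outside the rule for named genes and was chosen after its values were seen.

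**Figure D2:**
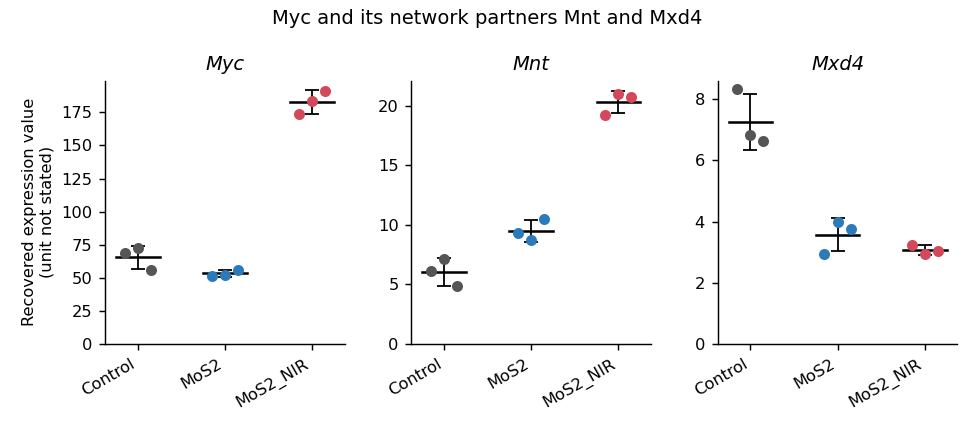
Recovered expression value (vertical axes from 0, unit not stated) of Myc and of the MAX-bound repressor genes Mnt and Mxd4 in each library, with points for libraries, horizontal bars for group means and error bars for the SD (n = 3). Mnt is at 19.23 to 21 with light and 4.81 to 7.13 in Control, and Mxd4 is at 2.92 to 3.97 in both groups with particles against 6.64 to 8.33 in Control.

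Other ribosome assembly genes were called higher in every tested case with light against Control and in most with particles alone, though scaling ended many of these calls. The lists held 190 such genes besides the 4 described, and 30 of them were in the table and tested. With particles and light all 30 were called higher than Control at a limma adjusted p under 0.05, against 63.5% of all tested genes called higher and 33.9% lower, and their median log2 fold change was 1.37 (range 0.94 to 2.58) against 1.01 over all tested genes. With particles alone 23 of 30 (76.7%) were called higher and 0 lower, against 30.1% higher and 16.8% lower of all tested genes, with a median of 0.43 against 0.17. Light added to particles gave 28 higher and 0 lower, against 61.7% higher and 25.4% lower of all tested genes, with a median of 0.94 against 0.68. With light against Control nearly every tested gene was called either higher or lower, so mainly the direction of the 30 was open. The listed genes not in the table could not be counted. These comparisons share libraries with each other, and the lists were not independent of earlier results on the same table.

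The counts depended on scaling. After median-ratio scaling 14 of 30 were called higher in MoS2_NIR against Control, 9 in MoS2_NIR against MoS2 and 5 in MoS2 against Control. Of all 1748 tested genes 517, 409 and 163 were called higher in these comparisons with that scaling. The count of 9 is not far from the share of all tested genes, and nothing is read from it. Quantile normalization gave 11 for MoS2 against Control, where 407 of the 1748 tested genes were called higher. The sign of the log2 fold change turned under median-ratio scaling for 6 of the 30 with particles alone, for 1, Taf1a (-0.01), with light against Control, and for 4 with light against MoS2. With that scaling 1 of the 30, Gnl3, was called lower with particles alone (-0.34, limma adjusted p = 0.00536). The scaled medians of the 30 were 0.1 with particles alone, 0.27 with light against Control and 0.2 with light against MoS2. Those of all tested genes were -0.09, 0.11 and 0.02. The count of 23 for particles alone also fell to 15 without Control replicate 3 and to 14 without MoS2 replicate 2. In these fits 431 and 429 of all tested genes were called higher. Rrp9, Pwp2, Rrp36, Nol9 and Taf1c were the 5 genes called higher with particles alone under each alternative run. The Control values of Taf1c (1, 0.85 and 0.8) were at or under the filter value of 1. Taf1c thus passed the filter only through the groups where it was higher. Rmrp and Rpp38 each had 1 Control library under 1 (0.97 and 0.79), so they too passed only with libraries of the other groups. All of these genes are among the 30, and their calls as higher are not independent of the filter. For light against Control all 30 were called in each fit that left out 1 library, and 14 were called under each alternative run. How many of all tested genes were called under each alternative run was not counted, so these counts of 5 and 14 have no share beside them.

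In the small nucleolar RNPs, where Nop56 belongs, 4 listed genes were tested and all were called higher in all 3 comparisons, against 30.1%, 63.5% and 61.7% of all tested genes for MoS2 against Control, MoS2_NIR against Control and MoS2_NIR against MoS2. Rrp9, a protein of the U3 particle that starts cleavage of the precursor RNA, rose from 20.3 ± 1.29 in Control to 32.2 ± 1.79 in MoS2 and 60.7 ± 4.05 in MoS2_NIR (SD, n = 3 each; limma adjusted p = 0.000898 and 1.67e-07 against Control). Znhit6, a factor that helps to assemble box C/D particles, rose from 10.4 ± 0.384 to 14.2 ± 1.01 and 25.4 ± 1.78. For the box H/ACA particles, which guide pseudouridine formation, the assembly factor genes Shq1 and Naf1 had log2 fold changes of 1.14 and 1.11 with light against Control (limma adjusted p = 2.84e-06 and 5.98e-06). With median-ratio scaling neither Znhit6, Shq1 nor Naf1 was called in that comparison (limma adjusted p = 0.57, 0.271 and 0.683) or with particles alone (0.739, 0.123 and 0.507). For light against MoS2 all 4 calls ended with that scaling (limma adjusted p = 0.395 for Rrp9, 0.897 for Znhit6, 0.515 for Shq1 and 0.724 for Naf1), and Shq1 and Naf1 turned sign. The Naf1 call with particles alone (limma adjusted p = 0.0172) ended without MoS2 replicate 3 (0.0664). The core genes Nop58, Fbl, Snu13 and Dkc1 were not among the genes analysed here.

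On the path of the 40S subunit, 10 listed genes were tested, all 10 were called higher with light against Control (63.5% of all tested genes), and 9 with particles alone (30.1%). Mphosph10, a U3 protein, and Utp4, an early factor of the small subunit processome, each had a log2 fold change of 1.66 with light against Control (limma adjusted p = 2.14e-07 and 1.33e-07). Mphosph10 went from 4.25 ± 0.456 through 5.77 ± 0.246 to 15.6 ± 0.997, and Utp4 from 13 ± 0.631 through 17.5 ± 0.762 to 43.3 ± 3.99 (SD, n = 3 each). Rrp36 had the largest log2 fold change of these genes with particles alone, 0.73 (SE 0.1, limma adjusted p = 0.000572), and Pwp2, of the same processome, had 0.63 (limma adjusted p = 0.00131). Tsr1, Pdcd11, Bysl, Rrp12 and Nop9 had log2 fold changes of 1.6, 1.39, 1.29, 1.24 and 1.19 with light against Control, with limma adjusted p-values from 7.7e-07 to 4.23e-06. With median-ratio scaling the calls of Bysl, Rrp12, Nop9, Rrp36 and Utp25 in MoS2_NIR against Control ended (limma adjusted p = 0.105, 0.0796, 0.504, 0.152 and 0.896). With particles alone the calls of Pwp2 and Rrp36 were kept with that scaling and the other 7 ended. With particles alone Utp25 was at 0.66 (limma adjusted p = 0.0502), and the calls of Tsr1, Rrp12 and Mphosph10 ended in 4, 7 and 2 of the 9 fits that left out 1 library. Their highest limma adjusted p-values were 0.127 without MoS2 replicate 1 for Tsr1, and 0.115 and 0.0573 without MoS2 replicate 2 for Rrp12 and Mphosph10.

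On the path of the 60S subunit, where Ppan, Rrs1 and Grwd1 act, 8 further genes were tested. All 8 were called higher with light, against Control and against MoS2, and 5 of 8 with particles alone, where the shares of all tested genes were 63.5%, 61.7% and 30.1%. Nol9, an RNA kinase of the precursor's internal spacer, went from 2.94 ± 0.782 through 5.02 ± 0.115 to 13.9 ± 0.663 (SD, n = 3 each; limma adjusted p = 0.00609 with particles alone and 4.48e-07 with light, against Control). Urb2 and Urb1, early scaffold factors, had log2 fold changes of 1.86 and 1.3 with light against Control (limma adjusted p = 4.21e-07 and 2.53e-06). With particles alone Urb2 was called at a limma adjusted p of 0.0472, Urb1 at 0.0283 and Nip7 at 0.0236. These calls ended in 8, 4 and 4 of the 9 fits that left out 1 library, and the highest limma adjusted p, without MoS2 replicate 1 for each, was 0.128, 0.102 and 0.0897. Pelp1, which works in release of the particle from the nucleolus, was at 0.58 with particles alone and 1.36 with light (limma adjusted p = 0.00698 and 3.07e-06 against Control). With median-ratio scaling both Pelp1 calls ended (limma adjusted p = 0.112 and 0.0748), as did those of Nip7 (0.647 and 0.118), and with light against MoS2 Nip7, Pelp1 and Urb1 were not called (0.31, 0.97 and 0.128). The calls of Urb1 and Urb2 with particles alone ended too (0.523 and 0.75).

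Gnl3, Wdr74 and Dhx33 were the 3 genes of the 60S list not called with particles alone. Gnl3, the nucleolar GTPase nucleostemin, had Control values of 37.48, 40.18 and 33.73, MoS2 values of 39.17, 35.28 and 40.74, and MoS2_NIR values of 105.96, 92.95 and 101.62. Control and MoS2 overlapped and MoS2_NIR was clear of both. Its log2 difference was 0.05 with particles alone (SE 0.1, limma adjusted p = 0.695) and 1.41 with light against Control (SE 0.1, limma adjusted p = 3.83e-07), and with median-ratio scaling the former was -0.34 (limma adjusted p = 0.00536). Wdr74 was at 0.2 and 1.56 and the helicase gene Dhx33 at 0.3 and 1.65 in the same comparisons (limma adjusted p = 0.222 and 0.0941 with particles alone).

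**Figure D3:**
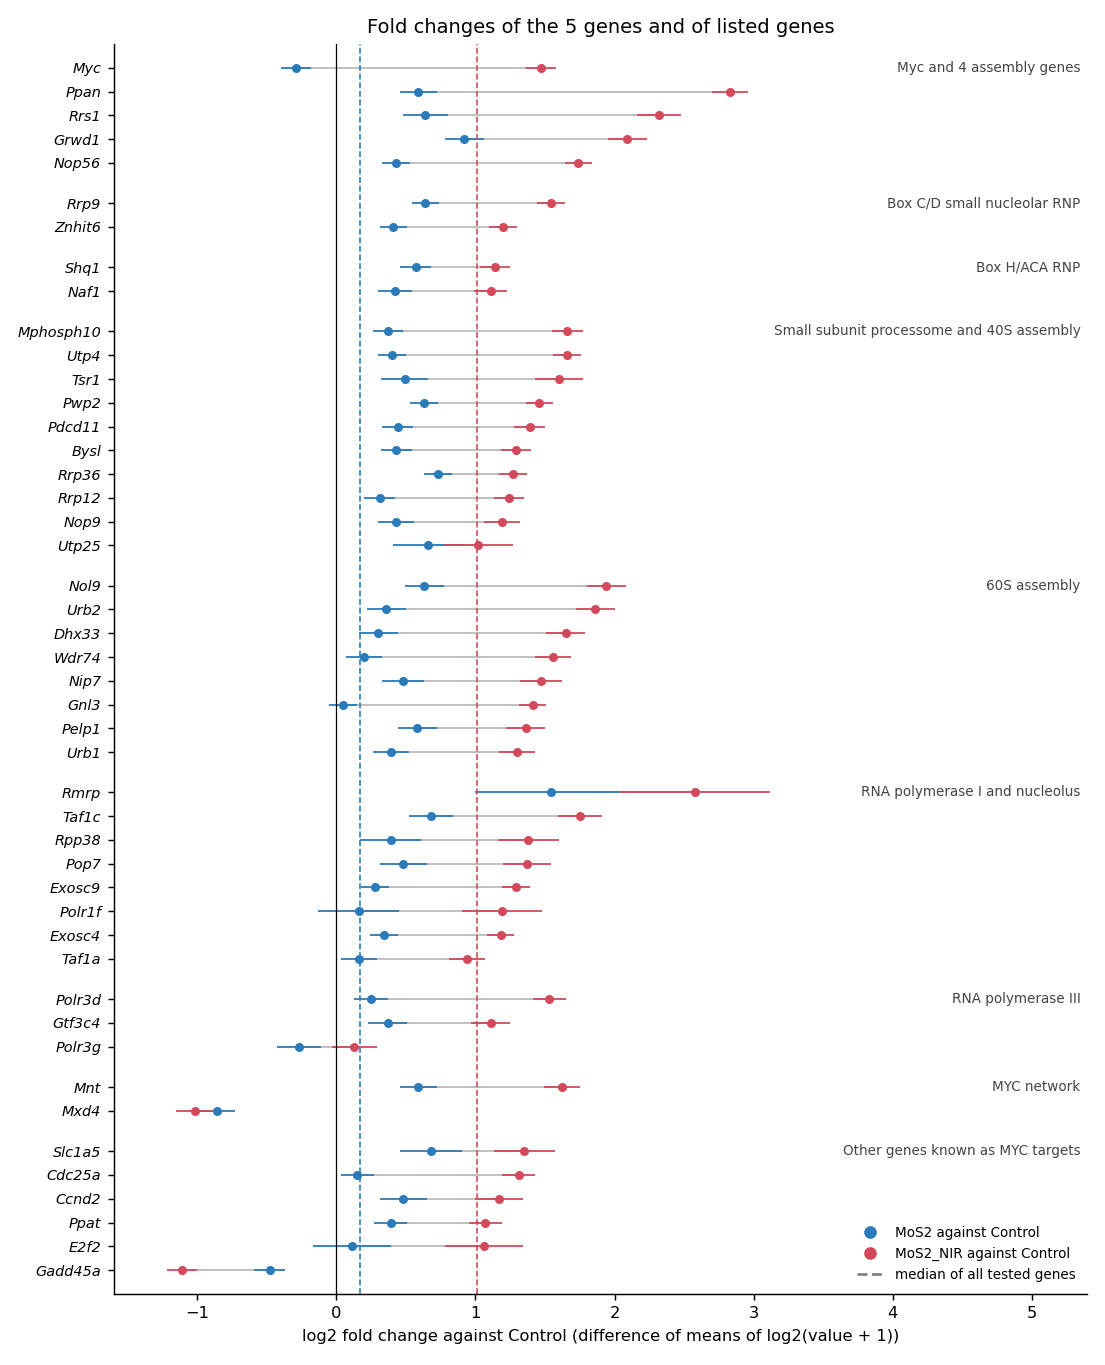
Log2 fold change against Control (horizontal axis, difference of means of log2 (value + 1), error bars are the SE from limma, n = 3 a group) for MoS2 and MoS2_NIR, for the 5 genes and for the tested genes of the lists. Dashed lines mark the medians of all tested genes, 0.17 and 1.01. For MoS2_NIR, Ppan, Rrs1 and Grwd1 lie furthest to the right among assembly genes other than Rmrp, while for MoS2 Rrp36, Taf1c and Utp25 lie right of Rrs1 and Ppan, and Myc, Mxd4, Polr3g and Gadd45a are left of 0 with particles alone.

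For RNA polymerase I and the processing enzymes of the nucleolus, 8 listed genes were tested, all were called higher with light against Control (63.5% of all tested genes), and 5 with particles alone (30.1%). Taf1c, a subunit of the factor that sets RNA polymerase I on its promoter, went from 0.883 ± 0.104 through 2.06 ± 0.66 to 5.38 ± 0.75 (SD, n = 3 each; limma adjusted p = 0.00676 and 1.52e-06 against Control), while Taf1a of the same factor was at 0.16 with particles alone and 0.94 with light (limma adjusted p = 0.314 and 2.69e-05). The Control values of Taf1c were at or under the filter value of 1. Polr1f, a subunit of the polymerase, was at 1.19 with light against Control (SE 0.29, limma adjusted p = 0.00297). The calls of Polr1f and Taf1a in MoS2_NIR against Control ended both with median-ratio scaling (limma adjusted p = 0.69 and 0.949) and with quantile normalization (0.176 and 0.0694). Rmrp, the RNA of the nuclease RNase MRP, which is known to lack a poly(A) tail, had Control values of 2.32, 1.11 and 0.97, MoS2 values of 6.82, 6.74 and 4.62, and MoS2_NIR values of 5.54, 32.14 and 12.57, with 1 irradiated library inside the MoS2 range. Its call with light against Control was kept under each alternative run, at 2.58 on the log2 scale (SE 0.54, limma adjusted p = 0.00184), and that with particles alone (limma adjusted p = 0.0479) ended in 7 of the 9 fits that left out 1 library, with a limma adjusted p of 0.119 without MoS2 replicate 1. The proteins of this nuclease, Rpp38 and Pop7, were at 1.38 and 1.37, and the exosome genes Exosc9 and Exosc4 at 1.29 and 1.18, with light against Control. With median-ratio scaling these 4 genes were at 0.46, 0.26, 0.13 and 0.07, and none of the 4 was called (limma adjusted p = 0.131, 0.2, 0.213 and 0.568). Rmrp and Rpp38 each had 1 Control library under the filter value (0.97 and 0.79). Like Taf1c they passed the filter only with libraries of the other groups, so their calls are not independent of it. With particles alone the calls of Pop7 (limma adjusted p = 0.0428), Exosc9 (0.0469) and Exosc4 (0.0175) ended in 6, 7 and 1 of those fits, and their highest limma adjusted p-values, when replicates 3, 2 and 1 of MoS2 were left out in turn, were 0.142, 0.144 and 0.0598. Without strand information in the sources, reads of an overlapping antisense gene could not be told apart for any gene named here.

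Of 21 listed genes of RNA polymerase III, which makes the 5S and transfer RNAs, 3 were tested. Polr3d, a subunit, went from 6.81 ± 1.26 through 8.24 ± 0.535 to 21.3 ± 0.599 (SD, n = 3 each; limma adjusted p = 0.111 with particles alone and 7.75e-07 with light, against Control). Gtf3c4, of an initiation factor, was at 1.11 with light against Control (limma adjusted p = 1.62e-05, or 0.815 with median-ratio scaling). Its call with particles alone (limma adjusted p = 0.0488) ended in 7 of the 9 fits that left out 1 library, with 0.124 without MoS2 replicate 2. Polr3g was at -0.27 with particles alone and 0.13 with light (limma adjusted p = 0.187 and 0.436), and with median-ratio scaling at -0.64 and -1 (limma adjusted p = 0.00811 and 0.000234). Polr3g and Gtf3c4 lie outside the rule for named genes, as do Utp25 and Taf1a above, and were chosen after their values were seen. Of 81 listed genes of cytosolic ribosomal proteins 0 were in the table.

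Among 51 other genes known as MYC targets, 6 were tested. With light against Control 5 were called higher and 1 lower, against 63.5% and 33.9% of all tested genes, and with particles alone 3 were higher and 1 lower, against 30.1% and 16.8%. The glutamine transporter gene Slc1a5, the cell cycle phosphatase gene Cdc25a, the cyclin gene Ccnd2 and Ppat, the first enzyme of purine synthesis, had log2 fold changes of 1.35, 1.31, 1.17 and 1.07 with light against Control (limma adjusted p = 0.000154, 2.03e-06, 5.02e-05 and 5.42e-06). With median-ratio scaling these 4 calls ended, at log2 differences of 0.18, 0.21, 0.01 and -0.03 (limma adjusted p = 0.37, 0.12, 0.966 and 0.757). Cdc25a was not called with particles alone (log2 fold change 0.15, limma adjusted p = 0.339). The calls of Slc1a5, Ccnd2 and Ppat with particles alone (limma adjusted p = 0.0283, 0.0406 and 0.0185) ended in 3, 7 and 2 of the 9 fits that left out 1 library. The highest limma adjusted p was 0.0734 without MoS2 replicate 3, 0.135 without Control replicate 3 and 0.057 without MoS2 replicate 1. With median-ratio scaling these particle calls ended too (limma adjusted p = 0.196, 0.61 and 0.75), as did that of Ppat with quantile normalization (0.083). Gadd45a, a growth arrest gene that MYC is known to repress, fell from 116 ± 13.3 to 82.8 ± 6.93 with particles alone and to 53 ± 3.73 with light (SD, n = 3 each; limma adjusted p = 0.00596 and 2.52e-06). Myc was at -0.29 and 1.47 in the same comparisons, and a link between the genes was not tested. The remaining gene, E2f2, named after its values were seen, was at 1.06 with light against Control (limma adjusted p = 0.00447), a call that ended with median-ratio scaling (0.52) and with quantile normalization (0.121). A Control library of E2f2 was at 0.84, under the filter value of 1, so it passed the filter only with libraries of the other groups. It is counted among the 5 called higher.

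The genes whose scores lay nearest to each of the 5 were found by the root mean square difference of scores over the 9 libraries, among 805 genes with a mean value of at least 5. The 9 libraries fall into 3 groups, so this measure mostly follows the group means. Nearest to Myc was Plk2, a polo-like kinase gene, with a difference of 0.0755 and means of 45.4, 36.8 and 112 in Control, MoS2 and MoS2_NIR. Next came Tlcd2 (0.156) and Mir100hg (0.157), at about the same distance as each other and well beyond Plk2. Nearest to Ppan were Twnk (0.0589), Filip1l (0.0618) and Fam222b (0.0797), and nearest to Rrs1 were Wfs1 (0.0702), Olfm1 (0.0734) and Plk3 (0.0818). Nearest to Grwd1 were Pwp2 (0.0941), Pvr (0.0987) and Large2 (0.104), and nearest to Nop56 were Esf1 (0.0779), Urb2 (0.0924) and Efcab14 (0.0931). Among the 5 genes themselves the closest pair was Ppan and Nop56 (0.147) and the most distant Myc and Grwd1 (0.617), and Myc was at 0.362 or more from each of the others. With quantile normalization 2 of the 3 nearest genes were the same for Myc and for Grwd1, 1 for Ppan, and 0 for Rrs1 and for Nop56. With median-ratio scaling 2 of 3 were the same for Myc and for Rrs1, and 1 for Ppan, for Grwd1 and for Nop56.

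**Figure D4:**
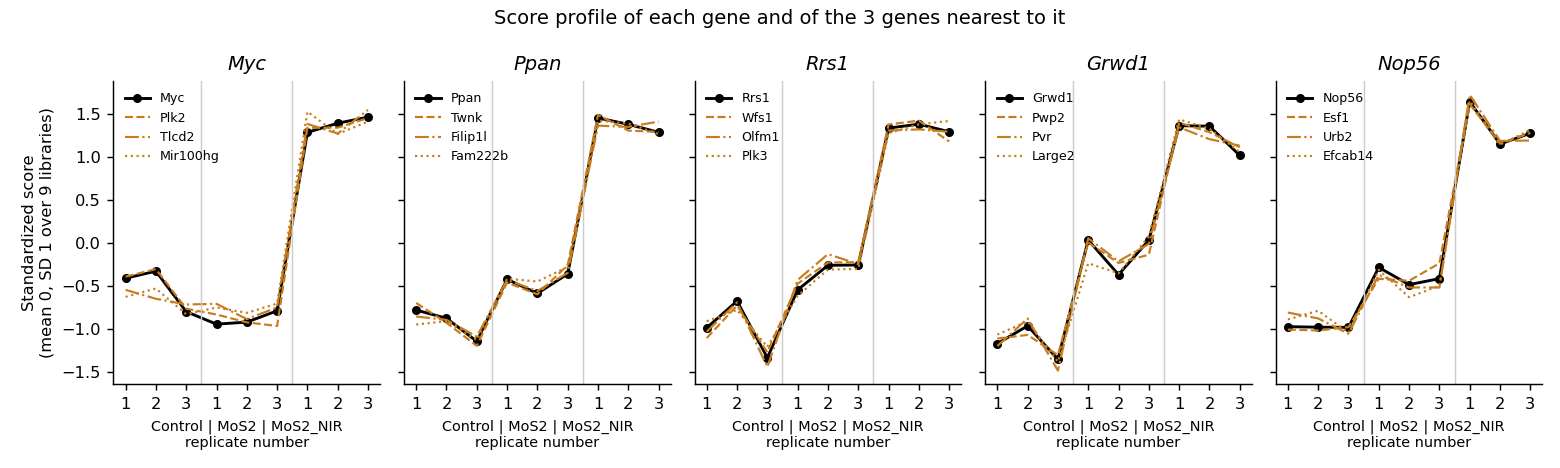
Standardized score (vertical axis, mean 0 and SD 1 over the 9 libraries) of each of the 5 genes in black and of the 3 genes nearest to it in orange, by library (horizontal axis, replicate number within Control, MoS2 and MoS2_NIR). The score of Myc is -0.94 to -0.78 in MoS2, against -0.36 to 0.04 for Grwd1, and all 5 genes are at 1.02 or above in MoS2_NIR.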

How the data were processed

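Messenger RNA of 9 libraries (3 groups of 3, from the sample titles) was analysed. The build mm10 and the tools HTSeq, Cufflinks 2.1.1 and Bowtie 0.12.9 are named, per the submitters' processing notes, without saying which step each did. The deposited table holds 1 score per gene and library, standardized by the authors: 2391 of 2392 genes have mean 0 and SD 1, and 1 gene has 0 throughout.

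Values with a step of 0.01 whose natural log, after adding 1, gives the deposited scores within 3e-09 were searched for, and accepted where the expected number of chance solutions was below 0.001. This gave 2389 genes (99.87%), Nop56 included, and at most 9.9e-07 chance solutions. For 9 genes, none named here, the level is known up to a whole-number factor. The search was tested on simulated data. Depth is unknown, so no counting interval is given.

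The 1748 genes that reached a value of 1 in 3 libraries or more were fitted as log2 (value + 1) with limma 3.58.1 in R 4.3.3 (trend, robust, no scaling, 9 libraries in 1 fit). Adjusted p-values are Benjamini-Hochberg over 1748 genes, called under 0.05. The design also held a test for counts, which these values do not allow. The members and lists were chosen with earlier results of these data known. Named were the 5 genes, up to 30 tested genes of the pathway lists by absolute log2 fold change with light against Control, the 5 largest called MYC targets and the 3 nearest genes of each member. Alternatives were other pseudocounts, filter, scalings, trend, groups, a replicate block and leaving out each library. The reference here is of the rat, so no sequence or position was used.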

Additional observations from a re-analysis of the deposited data

How the results depend on the processing

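The directions of Myc, Ppan, Rrs1, Grwd1 and Nop56 were the same under every alternative run. The unknown depth, the unstated selection of genes and the choice of scaling limit what sizes mean. The median-ratio values of these 5 genes are MoS2 against Control -0.69, 0.22, 0.33, 0.61 and 0.04, MoS2_NIR against Control 0.27, 1.66, 1.25, 1.02 and 0.53, and MoS2_NIR against MoS2 0.96, 1.45, 0.92, 0.41 and 0.49 (log2 fold changes, in the order above). After quantile normalization, values that moved by more than the replicate SD were 0.73 for Grwd1 and 0.53 for Nop56 (MoS2 against Control), 1.65 for Myc, 1.67 for Rrs1, 1.43 for Grwd1 and 1.96 for Nop56 (MoS2_NIR against Control), and 1.21 for Rrs1 and 0.69 for Grwd1 (MoS2_NIR against MoS2). With a pseudocount of 5 they were 0.37 for Rrs1 and 0.57 for Grwd1, then 2.48 for Ppan, 1.65 for Rrs1 and 1.46 for Grwd1, then 1.69 for Myc, 2.02 for Ppan, 1.27 for Rrs1 and 0.89 for Grwd1, in the same order of comparisons. With a pseudocount of 0.1 they were 2.59 for Rrs1 and 2.34 for Grwd1 (MoS2_NIR against Control) and 1.82 for Rrs1 (MoS2_NIR against MoS2). A higher pseudocount compresses low values by construction, and the cause of the other shifts was not tested.

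Ribosome assembly genes called higher numbered 5, 14 and 9 of 30 after median-ratio scaling in MoS2 against Control, MoS2_NIR against Control and MoS2_NIR against MoS2 (23, 30 and 28 without), and 11 after quantile normalization in the first. Leaving out 1 library gave 14 to 23 in MoS2 against Control. Over all tested genes the split of higher to lower calls in that comparison was 526 to 294, 163 to 569 after median-ratio scaling and 407 to 362 after quantile normalization. For MoS2_NIR against Control it was 1110 to 592, 517 to 639 and 986 to 613, and for MoS2_NIR against MoS2 1078 to 444, 409 to 610 and 687 to 544.

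Some listed genes changed sign, and the cause was not tested. In MoS2 against Control after median-ratio scaling these were Gnl3 (-0.34), Wdr74 (-0.18), Exosc4 (-0.01), Exosc9 (-0.1), Polr1f (-0.17), Taf1a (-0.14), Polr3d (-0.1), Cdc25a (-0.2) and E2f2 (-0.13), after quantile normalization Polr1f (-0.02) and Cdc25a (-0.04), and without single libraries Gnl3 (-0.02 to 0.11), Polr1f (-0.13 to 0.49) and E2f2 (-0.13 to 0.45). In MoS2_NIR against Control after median-ratio scaling they were Taf1a (-0.01), Polr3g (-1) and Ppat (-0.03), and after quantile normalization Polr3g (-0.43). In MoS2_NIR against MoS2 after median-ratio scaling they were Naf1 (-0.04), Shq1 (-0.11), Rrp36 (-0.22), Utp25 (-0.34), Polr3g (-0.35), Ccnd2 (-0.09), Ppat (-0.07) and Slc1a5 (-0.12), and after quantile normalization Shq1 (-0.02), Utp25 (-0.24) and Polr3g (-0.1).

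No pairing by replicate number was seen: same-numbered libraries of different groups had correlations of their deviations of -0.0806 to 0.0996. With 3 libraries a group this cannot show whether libraries were prepared in matched sets. With the replicate number as a block, 21 of the 30 assembly genes were called higher in MoS2 against Control, and it changed no other count of these genes. The alternatives for nearest genes, shares and order counts were chosen after seeing the data.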
